A study of Mus musculus with 8 samples.

Results

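The 35 genes described here encode the glucose transporters, the enzymes and regulators of glycolysis and a set of targets of the hypoxia response, and were taken as a fixed list of symbols matched to the Ensembl IDs of the count tables. All 35 were matched, out of 56748 IDs, and 34 of them were among the 14942 genes expressed highly enough to be tested. The gene left out was Adm, which encodes the vasodilator peptide adrenomedullin and had at most 0.174 CPM (counts per 1000000 counts of a library) and at most 7 counts in any library.

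RNA was sequenced from 8 libraries of resting bone marrow-derived mast cells (BMMCs), 4 in each of 2 groups. All cells came from bone marrow of C57BL/6 mice aged 6 to 8 weeks, cultured in IL-3 for at least 4 weeks until most carried the high-affinity IgE receptor and c-Kit. In the Mettl3-RNP group the cells were electroporated with ribonucleoproteins of Cas9 and guides against Mettl3, the catalytic subunit of the N6-methyladenosine (m6A) writer of mRNA. This population was not a clone and could still hold cells that escaped targeting, and which guides the sequenced cells received is not given in the sources used here. Pulsed cells were electroporated without Cas9 RNP, so the cutting of DNA itself has no counterpart in the control. Both groups were numbered 1 to 4 and 4 mice were named as the source. Libraries of the same number were compared as pairs, on the inference that they came from the same mouse.

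As background, glycolysis converts glucose to pyruvate, and lactate dehydrogenase turns pyruvate into lactate where oxygen is short or flux is high. The hypoxia-inducible factor (HIF) is a pair of Hif1a or a relative with Arnt. Prolyl hydroxylases of the Egln family mark the alpha subunit for destruction through Vhl while oxygen is present, and many glycolytic genes and Egln3 itself are activated by HIF when that marking slows. Mast cells rely on glycolysis for degranulation and cytokine release after engagement of the IgE receptor.

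HIF binds DNA at a short core, ACGTG or GCGTG, so the 250 bases upstream of annotated starts were read for these letters on both strands in the RefSeq promoter table (build GRCm38.p6). A window was found for 32 of the 35 genes. Of the 32, 29 (90.6%) had at least 1 match in a window, against 61% of the 10164 tested genes that had a window. Counted by window, 38 of 48 (79.2%) held a match, against 54.8% of 13008 windows of tested genes and 38.6% of all 32851 windows. ACGTG alone stood in 50% of the windows of the listed genes, 21.4% of those of tested genes and 16.6% of all. Windows of the same gene can overlap, so they were not independent, and a match is no evidence that HIF binds there. The 5 windows shown are those of Egln3, the only gene of the list that passed the test between groups, of Ldha and Pgk1, which came closest to it, of Hk2, which differed most between replicate numbers, and of Ankrd37, a low-level HIF target with 4 matches. They lie at chr12:54203875-54204124 (minus strand), chr7:46845554-46845803 (plus), chrX:106186850-106187099 (plus), chr6:82774455-82774704 (minus) and chr8:45999851-46000100 (minus), and each reads 5′ to 3′ towards the start. Capitals mark ACGTG or GCGTG on either strand, so CACGT and CACGC are capitals too, and the palindrome CACGTG counts as a match on both strands.
Egln3: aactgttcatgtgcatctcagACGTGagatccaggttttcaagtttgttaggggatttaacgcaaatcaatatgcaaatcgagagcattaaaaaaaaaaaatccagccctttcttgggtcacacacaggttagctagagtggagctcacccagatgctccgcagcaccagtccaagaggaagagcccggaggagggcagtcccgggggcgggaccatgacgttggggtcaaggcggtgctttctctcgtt
Ldha: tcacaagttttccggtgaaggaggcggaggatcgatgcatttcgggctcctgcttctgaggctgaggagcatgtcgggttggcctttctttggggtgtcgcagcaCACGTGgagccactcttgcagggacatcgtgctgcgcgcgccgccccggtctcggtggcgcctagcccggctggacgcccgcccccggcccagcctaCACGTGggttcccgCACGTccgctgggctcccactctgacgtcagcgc
Pgk1: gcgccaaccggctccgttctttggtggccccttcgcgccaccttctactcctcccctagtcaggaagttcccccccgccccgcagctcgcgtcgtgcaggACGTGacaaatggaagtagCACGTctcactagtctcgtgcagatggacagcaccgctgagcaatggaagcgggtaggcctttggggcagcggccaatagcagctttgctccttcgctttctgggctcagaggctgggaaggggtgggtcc
Hk2: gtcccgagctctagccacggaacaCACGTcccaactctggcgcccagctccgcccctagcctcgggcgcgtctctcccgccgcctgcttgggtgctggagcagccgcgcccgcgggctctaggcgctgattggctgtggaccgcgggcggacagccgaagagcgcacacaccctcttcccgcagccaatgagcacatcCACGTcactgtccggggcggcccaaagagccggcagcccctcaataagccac
Ankrd37: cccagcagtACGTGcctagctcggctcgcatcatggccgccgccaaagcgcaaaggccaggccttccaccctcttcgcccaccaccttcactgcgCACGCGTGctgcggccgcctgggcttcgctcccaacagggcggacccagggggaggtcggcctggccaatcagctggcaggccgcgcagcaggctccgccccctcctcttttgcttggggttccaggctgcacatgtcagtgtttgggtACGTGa

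The Ldha window held 5 matches by this count, all of them ACGTG, while Egln3 held 1, Pgk1 and Hk2 held 2 each and Ankrd37 held 4, of which 2 were ACGTG. The window of Hif1a itself held 3. Gpi1, Tpi1 and Eno2 had no match in their windows. These promoters thus carried the letters of the core more often than those of other tested genes, which describes their sequence and not their activity in BMMCs. As the list was chosen to hold HIF targets, this comparison is a description and no test. The 32 listed genes had 48 windows and the 10164 tested genes 13008, and more windows give a gene more chances of a match.

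Depth was similar across libraries, with 32643260 to 45324826 counts, of which the 35 genes held 0.655% to 0.803% and mitochondrial genes 3.82% to 5.26%. Mettl3, examined first, had 12.3, 9.18, 4.88 and 9.21 CPM in Mettl3-RNP libraries 1 to 4 and 25.9, 24.5, 11.2 and 26.5 CPM in Pulsed libraries 1 to 4. Each Mettl3-RNP library was below its pair, and the highest Mettl3-RNP library was above Pulsed 3. The log2 fold change was -1.30 (SE 0.109, adjusted p = 0.00543, edgeR quasi-likelihood test blocked by replicate number, Benjamini-Hochberg adjustment over all tested genes). Mast cell markers were abundant, with 15 of 16 tested and a summed level of 50577 to 73605 CPM. Of the 15, 7 had a lower and 8 a higher fitted level, with a median log2 fold change of 0.01. Tpsab1 alone was under 1 CPM throughout, and the mast cell carboxypeptidase Cpa3 was the only one called, lower in Mettl3-RNP cells (log2 fold change -0.37, adjusted p = 0.0328 by edgeR). The Cpa3 call was lost without replicate 2, 3 or 4 (adjusted p = 0.159, 0.071 and 0.109 by edgeR). It was also lost with at least 10 counts in every library (adjusted p = 0.0583 by edgeR). The 10 neutrophil markers summed to at most 0.398 CPM, and S100a8, S100a9, Elane, Camp and Retnlg had no count in any library. All 6 basophil markers were tested, of which 5 were lower in 4 of 4 pairs (16% of all genes were) and 1 was higher in 4 of 4 pairs (15.7%). Il18rap and Ifitm1 were called lower (1.39% of all genes were). The Il18rap call was lost without replicate 1, 2 or 3 (adjusted p = 0.0549, 0.106 and 0.064 by edgeR). That of Ifitm1 was lost without replicate 2, 3 or 4 (adjusted p = 0.109, 0.102 and 0.107 by edgeR) and with library totals only (0.0568). The 6 markers had a summed level of 1795 to 2420 CPM in Mettl3-RNP and 2244 to 3323 CPM in Pulsed libraries. Most of that sum was Ifitm1, at 1004 to 1616 CPM in Mettl3-RNP and 1679 to 2655 CPM in Pulsed libraries. Macrophage markers summed to 8.61 to 37.6 CPM in Mettl3-RNP and 11.2 to 17.5 CPM in Pulsed libraries, with Csf1r, C1qa, C1qb, C1qc, Mertk and Marco under 1 CPM. Of the 5 tested, 3 were fitted lower and 2 higher, with log2 fold changes from -1.13 to 1.63, and Adgre1 was called lower. The Adgre1 call, at 29 to 128 counts, was lost without any of the replicate numbers (adjusted p from 0.0906 to 0.11 by edgeR) and with library totals only (0.0507). Erythroid markers summed to 12.3 to 22 CPM and 17.5 to 34 CPM, with 2 of 4 tested markers fitted lower and 2 higher, Car2 called lower and Hba-a2 without a count. The Car2 call was lost without replicate 2 (adjusted p = 0.103 by edgeR). The part of these markers in the results below was not tested, and in such bulk samples fewer cells of a type and less RNA per cell cannot be told apart.

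Depletion of Mettl3 was accompanied by a lower fitted level of most of the listed genes, but for nearly all of them the difference was small and did not pass the test. Egln3, the most strongly inducible of the HIF prolyl hydroxylases, was the only gene called, and it was lower. With edgeR, 1 of 34 genes was lower at an adjusted p of 0.05, where 1.39% of all tested genes were. None was higher (2.35% of all tested genes were). Egln3 was among the 122 lower genes of the whole table that also passed a fold change of 1.5, where 186 genes were higher. At an unadjusted p under 0.05, 12 of the 34 genes were lower (10.7% of all genes) and 1 was higher (11.8% of all genes). The fitted level was lower for 29 of 34 genes (50.2% of all genes), and the median log2 fold change was -0.24, against -0.0013 over all tested genes.

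Of the 34 genes, 13 were lower in 4 of 4 pairs (16% of all genes), namely Slc2a3, Hk2, Aldoa, Pgk1, Pgam1, Eno1, Ldha, Hif1a, Egln1, Egln3, Bnip3l, Ero1a and Mxi1. Only P4ha2 was higher in 4 of 4 pairs (15.7% of all genes). In CPM the groups did not overlap for Aldoa, Ero1a and Hif1a, which were lower in every Mettl3-RNP library than in any Pulsed library (1.2% of all genes). No gene of the list was higher in this way (2.03% of all genes). Counted per transcript length (TPM, below), the groups of Aldoa, Ero1a and Hif1a overlapped. Aldoa, for example, had 1263 TPM in Mettl3-RNP 1 and 1156 TPM in Pulsed 3. Pair 1 differed least, with a median log2 difference of -0.04 and 19 of 34 genes lower. Pairs 2, 3 and 4 had medians of -0.24, -0.26 and -0.34, with 27, 29 and 25 genes lower. Of all tested genes, 53.3%, 49.7%, 53.1% and 48% were lower in pairs 1 to 4, so pair 1 lay close to that share. Over all tested genes the medians of the 4 pairs lay between -0.03 and 0.02.

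How many of these differences were called depended on the count model. DESeq2 called 9 of the 34 genes lower (Hk2, Aldoa, Pgk1, Pgam1, Eno1, Ldha, Hif1a, Egln3 and Ero1a), where it called 4.56% of the 12334 genes it adjusted. It called P4ha2 higher (7.19% of all). With limma-voom, Pgk1, Ldha and Egln3 were lower (1.63% of all) and none was higher (2.67% of all). Without the replicate block edgeR called none of the listed genes and no other gene, although 579 genes, 1 of them listed, had an unadjusted p under 0.05.

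**Figure D1:**
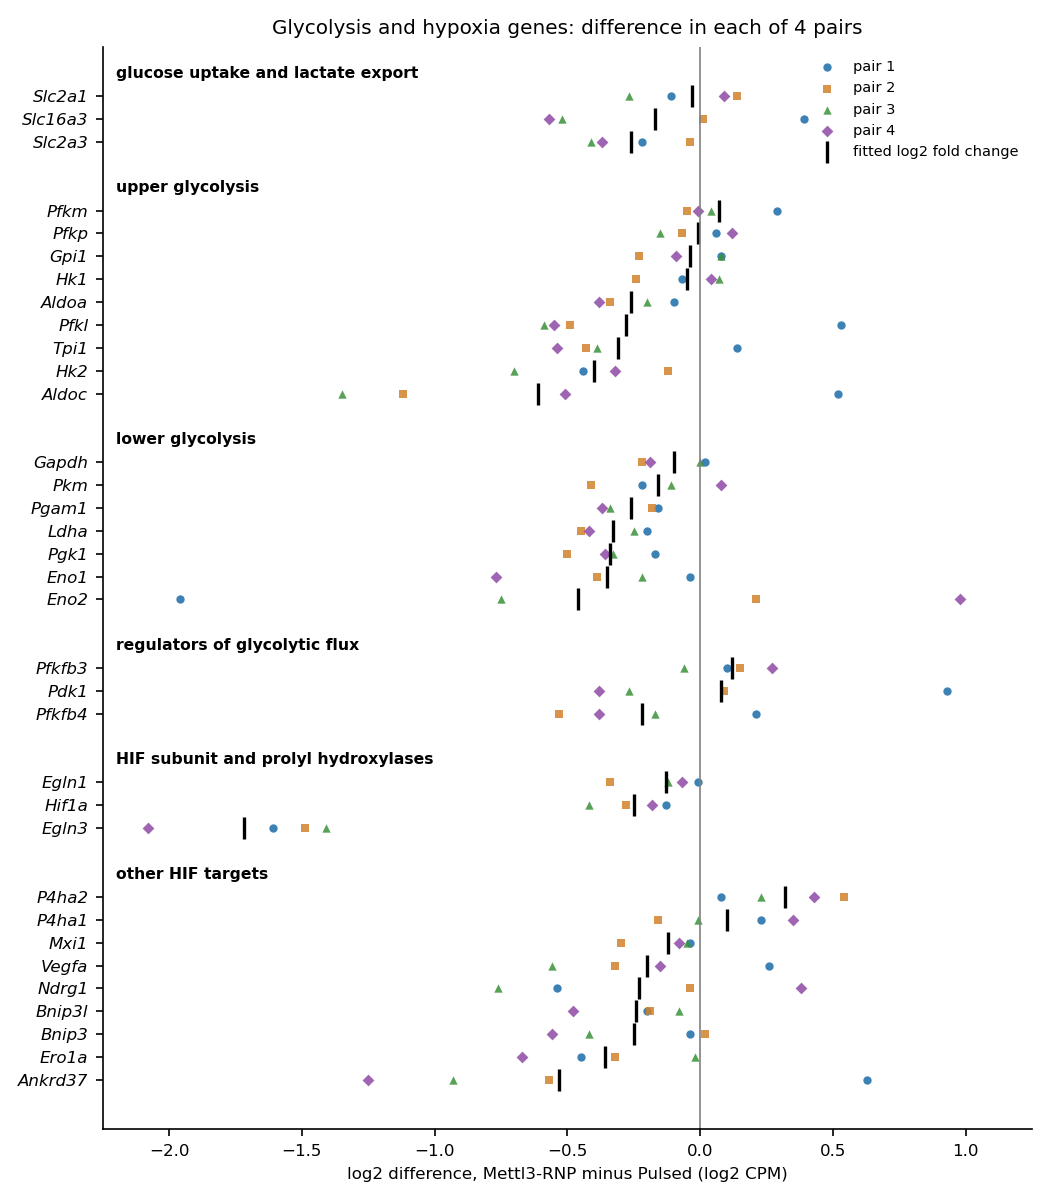
Log2 difference in CPM, Mettl3-RNP minus Pulsed, in each of the 4 pairs (symbols) and the fitted log2 fold change (black bar) for the 34 tested genes, grouped by role. Most bars lie left of 0, Egln3 lies farthest left at -1.72, and pair 1 (circles) lies right of the other pairs for several genes, such as Pfkl, Aldoc, Pdk1 and Ankrd37.

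The 3 listed genes of the HIF subunit and prolyl hydroxylases were lower in 4 of 4 pairs (16% of all genes were), and Egln3 was called. Egln3 (ENSMUSG00000035105; GRCm39 chromosome 12, 54225767 to 54250673, minus strand) had 1.61, 0.28, 1.07 and 0.257 CPM in Mettl3-RNP libraries 1 to 4 and 5.04, 0.888, 2.93 and 1.26 CPM in Pulsed libraries 1 to 4. Each Mettl3-RNP library was far below its own pair, while the groups overlapped, with replicates 1 and 3 high in both. The counts behind these values were low, from 9 to 60 in Mettl3-RNP and from 34 to 179 in Pulsed libraries. Egln3 fell by 1.72 on the log2 scale (SE 0.264, adjusted p = 0.02 by edgeR), a mean level of 0.805 ± 0.659 CPM against 2.53 ± 1.89 CPM (SD, n = 4). The pairs differed by -1.61, -1.49, -1.41 and -2.08. The call was lost without replicate 1 (adjusted p = 0.0811 by edgeR) and without replicate 2 (adjusted p = 0.0743), where the log2 fold change was -1.80 and -1.73.

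Hif1a, the oxygen-regulated subunit of the factor, had 144, 131, 155 and 148 CPM in Mettl3-RNP libraries 1 to 4 and 157, 160, 208 and 168 CPM in Pulsed libraries 1 to 4. In CPM the groups were separate, though Mettl3-RNP 3 and Pulsed 1 lay close to each other. Its log2 fold change of -0.25 (SE 0.0744) did not pass the test (adjusted p = 0.0986 by edgeR). Egln1, the hydroxylase held to set the basal turnover of HIF, ranged from 43 to 66.7 CPM in Mettl3-RNP and from 54.4 to 67.3 CPM in Pulsed libraries, with a log2 fold change of -0.13 (adjusted p = 0.349 by edgeR).

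Per transcript length, Egln3 was a minor member of its family in every library. In TPM (counts divided by the length of the canonical transcript and scaled to 1000000 per library), Egln2 made up 73.3% ± 4.38 (SD, n = 4) of the 3 hydroxylases in Mettl3-RNP and 68.8% ± 3.38 in Pulsed cells, and Egln1 made up 26% ± 3.92 and 29.1% ± 1.96. Egln3 held 0.622% ± 0.5 in Mettl3-RNP and 2% ± 1.43 in Pulsed cells. Egln2, which is not on the list, had 69 to 78.1 CPM in Mettl3-RNP and 65.4 to 70 CPM in Pulsed libraries and was higher in 4 of 4 pairs, by 0.06 to 0.20 on the log2 scale, but did not pass the test (log2 fold change 0.13, adjusted p = 0.304 by edgeR). Hif1a held at least 99.3% of the summed TPM of the 3 HIF alpha subunits in each library, and Epas1 stayed at or under 0.314 CPM. Arnt, the partner of Hif1a, and Vhl, which recognises the hydroxylated subunit, had log2 fold changes of -0.08 and 0.18 and adjusted p-values of 0.542 and 0.236 by edgeR.

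**Figure D2:**
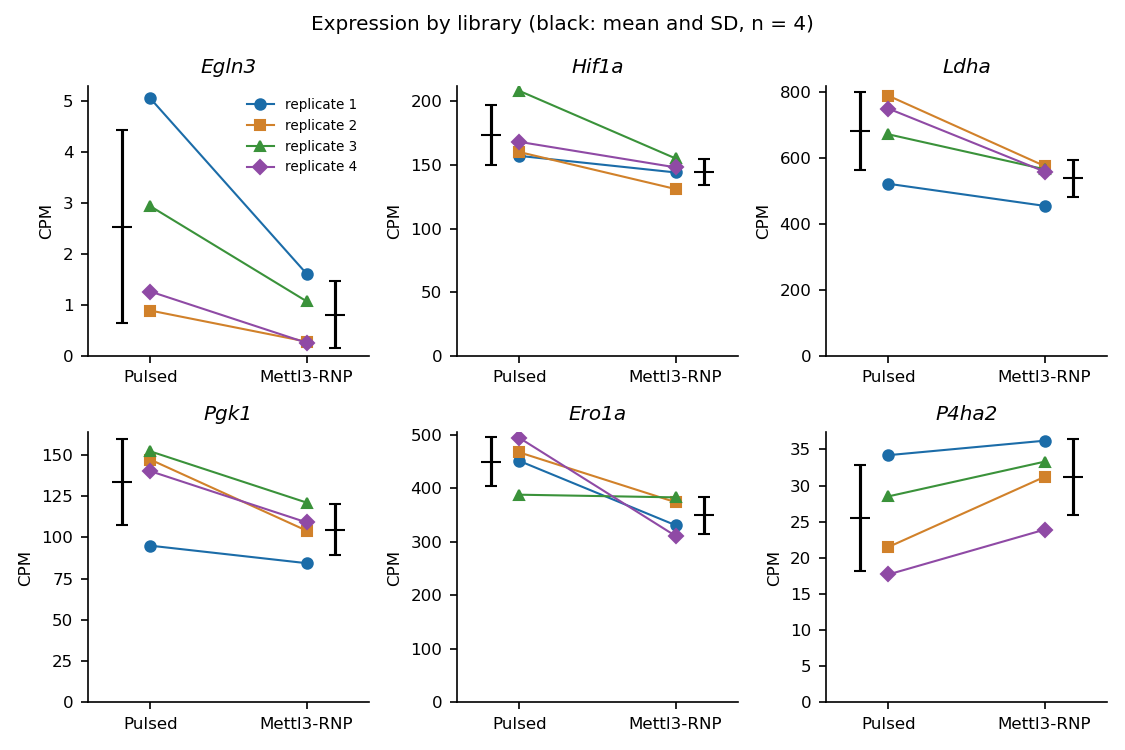
Expression in CPM of Egln3, Hif1a, Ldha, Pgk1, Ero1a and P4ha2 in each library, with lines joining the pairs and the mean and SD of 4 libraries in black. All lines of the first 5 genes slope down from Pulsed to Mettl3-RNP, that of Ero1a in replicate 3 only from 388 to 383 CPM, and all lines of P4ha2 slope up.

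The later steps of glycolysis, from glyceraldehyde phosphate to lactate, was measured through 7 genes. None was called, 7 of 7 had a lower fitted level, 4 were lower in 4 of 4 pairs, and their median log2 fold change was -0.33. Ldha, the lactate dehydrogenase subunit that favours lactate formation, had 455, 576, 566 and 559 CPM in Mettl3-RNP libraries 1 to 4 and 522, 789, 672 and 750 CPM in Pulsed libraries 1 to 4. Pulsed 1 was the lowest of its group and lay below 3 of the 4 Mettl3-RNP libraries, so the groups overlapped although every pair differed the same way. Ldha had a log2 fold change of -0.33 (SE 0.0744, adjusted p = 0.0538 by edgeR).

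Pgk1, the phosphoglycerate kinase that yields the first ATP of the pathway, had 84.3, 104, 121 and 109 CPM in Mettl3-RNP libraries 1 to 4 and 94.9, 147, 152 and 140 CPM in Pulsed libraries 1 to 4. Replicate 1 was again the lowest number in both groups and made them overlap. Pgk1 had a log2 fold change of -0.34 (SE 0.0749, adjusted p = 0.0515 by edgeR). Eno1, an enolase, had 269, 346, 477 and 284 CPM in Mettl3-RNP and 277, 455, 555 and 483 CPM in Pulsed libraries 1 to 4. Its pairs ranged from nearly level in pair 1 to a clear difference in pair 4 (log2 -0.04 and -0.77), and it was not called (log2 fold change -0.35, adjusted p = 0.121 by edgeR). Pgam1, the phosphoglycerate mutase, averaged 86.6 ± 13.8 CPM in Mettl3-RNP and 105 ± 21.2 CPM in Pulsed libraries (SD, n = 4), each pair pointing down (log2 fold change -0.26, adjusted p = 0.0785 by edgeR).

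The other genes of these steps differed less or less evenly. Gapdh, the glyceraldehyde phosphate dehydrogenase, had a log2 fold change of -0.10 (adjusted p = 0.498 by edgeR), with pairs 1 and 3 level. Pkm, the pyruvate kinase, had 663 to 826 CPM in Mettl3-RNP and 780 to 881 CPM in Pulsed libraries (log2 fold change -0.16, adjusted p = 0.329 by edgeR). Eno2, the enolase of neurons, was scarce at 0.219 to 4.36 CPM, and its pairs pointed both ways, from -1.96 in pair 1 to 0.98 in pair 4. Gapdh has 81 near-identical copies elsewhere in the annotation, 75 of them pseudogenes, with a summed mean of 14.3 CPM. An antisense gene, Iffo1, covers 81.5% of its transcript, so its counts carry that uncertainty.

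The earlier steps, from hexokinase to triosephosphate isomerase, were represented by 9 genes, of which none was called, 8 had a lower fitted level and 2 were lower in 4 of 4 pairs. The median log2 fold change was -0.26. Aldoa, the main aldolase, had 710, 732, 720 and 701 CPM in Mettl3-RNP libraries 1 to 4 and 763, 928, 828 and 914 CPM in Pulsed libraries 1 to 4. In CPM the Mettl3-RNP libraries lay within a narrow band below all Pulsed libraries. Aldoa had a log2 fold change of -0.26 (SE 0.0749, adjusted p = 0.0955 by edgeR).

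Hk2, the inducible hexokinase, had 30.3, 48.3, 296 and 38.6 CPM in Mettl3-RNP libraries 1 to 4 and 41.2, 52.5, 480 and 48.4 CPM in Pulsed libraries 1 to 4. Replicate 3 stood far above the others in both groups, and within each number the Mettl3-RNP library was the lower. The log2 fold change was -0.40 (SE 0.0984, adjusted p = 0.067 by edgeR), and -0.30 without replicate 3 (adjusted p = 0.122). Hk1, the widely expressed hexokinase, had 408 to 651 CPM over all libraries and a log2 fold change of -0.05 (adjusted p = 0.76 by edgeR).

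Several enzymes of these steps differed in pair 1 from the other pairs. Aldoc, an aldolase of brain, had 58.5, 30, 16.2 and 42.7 CPM in Mettl3-RNP libraries 1 to 4 and 40.7, 65.3, 41.4 and 60.7 CPM in Pulsed libraries 1 to 4. It was higher in Mettl3-RNP 1 than in its pair and lower in the other pairs, with a log2 fold change of -0.61 (SE 0.272, adjusted p = 0.235 by edgeR). Without replicate 1 it was called, at -1.03 (adjusted p = 0.0226 by edgeR). Pfkl, the liver-type phosphofructokinase, behaved likewise. Its pairs differed by 0.53, -0.49, -0.59 and -0.55 on the log2 scale, and it had a log2 fold change of -0.58 without replicate 1 (adjusted p = 0.0335 by edgeR, against 0.419 with all pairs). Tpi1, the triosephosphate isomerase, had 175 to 206 CPM in Mettl3-RNP libraries, 159 CPM in Pulsed 1 and 265 to 284 CPM in the other Pulsed libraries (log2 fold change -0.31, adjusted p = 0.161 by edgeR). The phosphofructokinases Pfkp and Pfkm and the isomerase Gpi1 had log2 fold changes between -0.04 and 0.07, and the antisense gene Pitrm1 covers 17.5% of the Pfkp transcript.

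Glucose enters through transporters of the Slc2a family and lactate leaves through Slc16a3. None of the 3 listed transporters was called. Slc2a3, a high-affinity glucose transporter, had 113, 156, 168 and 94.8 CPM in Mettl3-RNP libraries 1 to 4 and 132, 161, 224 and 123 CPM in Pulsed libraries 1 to 4. It was lower in 4 of 4 pairs, by the least in pair 2, and its log2 fold change was -0.26 (SE 0.0817, adjusted p = 0.113 by edgeR). Slc2a1, the basal glucose transporter, pointed down in 2 pairs and up in 2 pairs (log2 fold change -0.03, adjusted p = 0.855 by edgeR). Slc16a3 did so too (log2 fold change -0.17, adjusted p = 0.572 by edgeR), and 17.7% of its transcript lies antisense to Csnk1d.

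Regulators of glycolytic flux showed no common direction, with a median log2 fold change of 0.08 over 3 genes. Pfkfb3 and Pfkfb4 make and break the activator of phosphofructokinase, and their log2 fold changes were 0.12 and -0.22 (adjusted p = 0.426 and 0.382 by edgeR). Pdk1, a kinase that inhibits the pyruvate dehydrogenase complex, had 11.9, 13.8, 10.9 and 13.5 CPM in Mettl3-RNP libraries 1 to 4 and 6.22, 13, 13.2 and 17.5 CPM in Pulsed libraries 1 to 4. Pulsed 1 was the low library here, and the pairs disagreed (log2 fold change 0.08, adjusted p = 0.862 by edgeR).

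Of the other HIF targets 9 of 10 were tested, none was called, 7 had a lower fitted level and the median log2 fold change was -0.23. Ero1a, the oxidase that supplies disulphide bonds in the endoplasmic reticulum, had 331, 374, 383 and 311 CPM in Mettl3-RNP libraries 1 to 4 and 451, 467, 388 and 494 CPM in Pulsed libraries 1 to 4. The groups did not overlap in CPM, but Mettl3-RNP 3 and Pulsed 3 were nearly equal. In TPM these 2 libraries stood at 189 and 185, so the direction of pair 3 depended on the scaling. The log2 fold change was -0.36 (SE 0.105, adjusted p = 0.0937 by edgeR), and without replicate 3 it was -0.48 and called (adjusted p = 0.0499). P4ha2, a catalytic subunit of the collagen prolyl hydroxylase, had 36.2, 31.2, 33.3 and 23.9 CPM in Mettl3-RNP libraries 1 to 4 and 34.2, 21.5, 28.5 and 17.7 CPM in Pulsed libraries 1 to 4. It was the only listed gene higher in every pair, with overlapping groups and a log2 fold change of 0.32 (SE 0.0958, adjusted p = 0.104 by edgeR). Its relative P4ha1 had a log2 fold change of 0.10 (adjusted p = 0.575 by edgeR).

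Bnip3 and Bnip3l, receptors for the removal of mitochondria, had log2 fold changes of -0.25 and -0.24 (adjusted p = 0.256 and 0.138 by edgeR), and Bnip3l was lower in 4 of 4 pairs. Mxi1, a Myc antagonist, was lower in 4 of 4 pairs by little (log2 fold change -0.12, adjusted p = 0.462 by edgeR). Vegfa, the vascular growth factor, and Ndrg1, a stress-responsive gene, were lower in 3 of 4 pairs, with log2 fold changes of -0.20 and -0.23 (adjusted p = 0.408 and 0.483 by edgeR). Ankrd37, an ankyrin repeat protein, had 3.26, 1.42, 1.87 and 1.03 CPM in Mettl3-RNP libraries 1 to 4 and 2.08, 2.14, 3.6 and 2.52 CPM in Pulsed libraries 1 to 4. It was higher in Mettl3-RNP 1 than in Pulsed 1 and lower in the other pairs (log2 fold change -0.53, adjusted p = 0.386 by edgeR). The antisense gene Ufsp2 covers 56.4% of its transcript, at a mean of 66.6 CPM, so without knowledge of the strand setting its few counts cannot be ascribed to it alone.

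Most listed genes differed between replicate numbers. In the same edgeR fit, 23 of 34 genes differed between the numbers 1 to 4 at an adjusted p of 0.05, where 53.9% of all tested genes did. Averaged over both groups, the highest number exceeded the lowest by a median of 1.54-fold, and by at least 2-fold for 7 genes. Ero1a varied least between numbers, by 1.09-fold.

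Hk2 varied most, with a mean of 388 CPM in replicate 3 against 35.8 to 50.4 CPM in the other numbers (10.8-fold between highest and lowest, adjusted p = 2.05e-05 by edgeR). Vegfa was also highest in replicate 3, at 134 CPM against 59.6 to 69.2 CPM (adjusted p = 0.00226 by edgeR), as were Slc2a3, Eno1 and Pfkp. Ndrg1 went the other way, with 30 CPM in replicate 3 and 109 to 139 CPM in the others (adjusted p = 0.000987 by edgeR). Replicate 3 was also highest in immediate early genes, the first transcripts induced by a stimulus, at a summed level of 13663 and 12676 CPM. The libraries of replicates 1 and 2 had 1556 to 3393 CPM, and those of replicate 4 only 235 and 165 CPM. The part of these differences in the levels of Hk2, Vegfa and Ndrg1 was not tested. Without replicate 3 the count of listed genes that differed between numbers was 11, and without replicate 1 it was 10. No share over all genes is given for these smaller fits, so the lower counts cannot be read as a trait of the list.

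Replicate 1 was at an extreme about as often as replicate 3, which held the highest level of 11 listed genes and the lowest of 10. No share over all genes is given for such counts. Replicate 1 held the highest level of 12 listed genes, all of them called between numbers, among them Eno2, Egln3, P4ha1, P4ha2, Slc2a1 and Pfkfb4. It also held the lowest level of 11 genes, 6 of them called between numbers. The 11 include Eno1, Pgk1, Pgam1, Gapdh and Ldha of the glycolytic chain, and Tpi1 and Gpi1, which were not called (adjusted p = 0.0825 and 0.103 by edgeR). Egln3 was highest in replicate 1 (3.33 CPM) and replicate 3 (2 CPM) and low in replicates 2 and 4 (0.584 and 0.758 CPM, adjusted p = 0.00187 by edgeR). Aldoa, Pkm and Hif1a were steadier, with 1.13-fold, 1.11-fold and 1.24-fold between the highest and lowest number, and were not called.

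**Figure D3:**
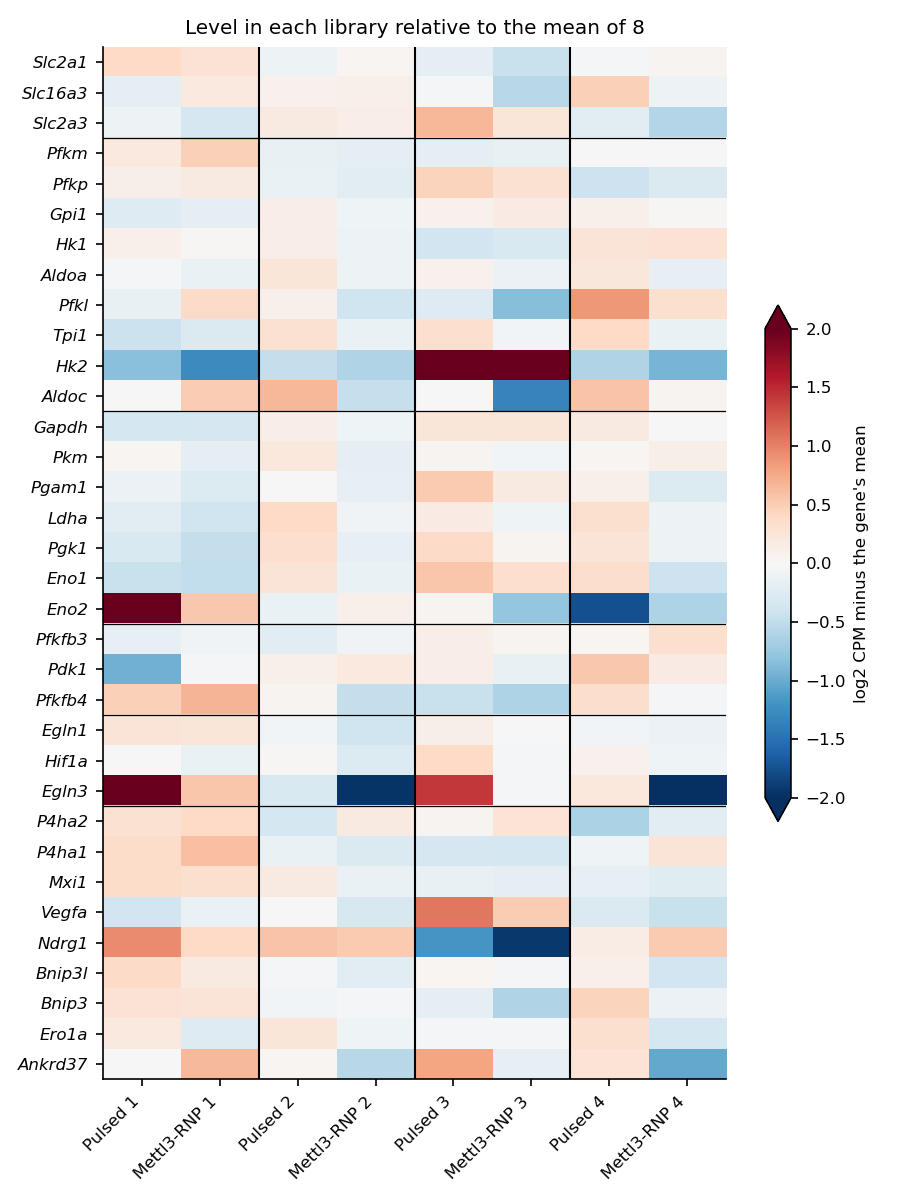
Log2 CPM of each tested gene in each library minus the gene's mean over the 8 libraries, with red above and blue below the mean, colours capped at 2 log2 units, vertical lines between replicate numbers and horizontal lines between roles. Libraries of the same number resemble each other, most clearly for Hk2, Vegfa and Ndrg1 in replicate 3.

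Between genes, levels were compared in TPM. In Pulsed cells Aldoa (1349 ± 150 TPM, SD, n = 4) and Gapdh (1256 ± 165) came first, with Gapdh above Aldoa only in Pulsed 3. Ldha (1018 ± 168) was below both in each of the 4 Pulsed libraries, and Pkm (784 ± 71.5) was below Ldha in each. They were followed by Gpi1, Eno1 and Tpi1 at 473 ± 47.7, 452 ± 95.5 and 358 ± 76, whose ranges overlapped. At the other end were Egln3 (2.27 ± 1.85), Eno2 (1.35 ± 1.81) and Adm (0.113 ± 0.109). Hif1a stood at 59.7 ± 4.08 TPM in Pulsed and 52.3 ± 4.48 TPM in Mettl3-RNP cells.

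Which gene copy served each step was nearly constant, with exceptions by replicate. Aldoa held 95.7% to 98.8% of aldolase TPM, Eno1 at least 96.7% of enolase TPM and Ldha at least 99.8% of lactate dehydrogenase TPM in every library, and Ldhb was at or under 0.11 CPM. Pfkp held 70.2% to 90.2% of phosphofructokinase TPM. Hk1 held 94.9% to 97% of hexokinase TPM in replicates 1, 2 and 4, but 72.5% in Mettl3-RNP 3 and 60.7% in Pulsed 3, where Hk2 held 27.5% and 39.2%. Slc16a3 held 61.2% to 91.8% of the TPM of 3 lactate transporters, the least in replicate 3, where Slc16a1 reached 33.8% and 31.8%.

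Among glucose transporters no copy dominated. Slc2a6, a transporter of internal membranes, held 39.2% ± 3.11 (SD, n = 4) in Mettl3-RNP and 40.4% ± 7.07 in Pulsed cells, Slc2a3 29.2% ± 8.08 and 32% ± 9.71, and Slc2a1 22.5% ± 3.83 and 20.9% ± 3.11. These shares differed by less than their spread between libraries. Slc2a9, better known as a urate transporter, held 6.58% ± 0.689 in Mettl3-RNP and 3.6% ± 0.582 in Pulsed cells, and the groups did not overlap.

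**Figure D4:**
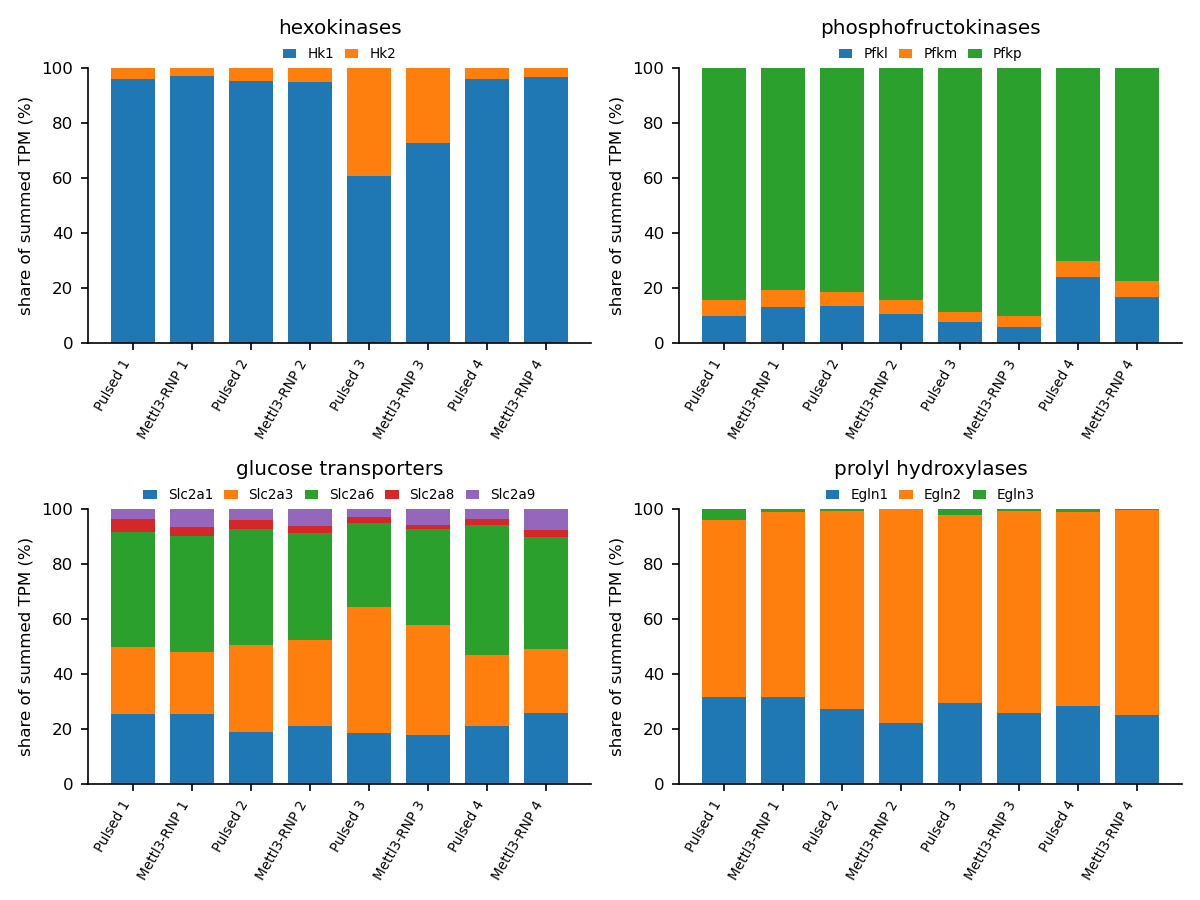
Share of the summed TPM of a gene family held by each of its main members, in percent, in each of the 8 libraries, for hexokinases, phosphofructokinases, glucose transporters and prolyl hydroxylases. Hk2 takes 27.5% and 39.2% of the hexokinases in the libraries of replicate 3 and at most 5.09% elsewhere, and the Slc2a9 band is wider in each Mettl3-RNP library than in its pair.

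Other genes of the same pathways, from lists that do not include the 35 genes, were tested in the same fit. Of 95 tested genes on 6 lists, 3 were lower and 2 higher, where 1.39% and 2.35% of all tested genes were. In the list of other glycolytic genes (16 of 27 tested, median log2 fold change -0.06), Slc2a9 was higher, with 29.6, 28.7, 22.8 and 28.2 CPM in Mettl3-RNP libraries 1 to 4 and 18.7, 18.1, 12.2 and 16.9 CPM in Pulsed libraries 1 to 4. The groups were separate, and the log2 fold change was 0.74 (SE 0.0853, adjusted p = 0.0111 by edgeR, and 0.0648 without replicate 2). Bsg, the chaperone of lactate transporters at the cell surface, was lower, with 193 to 259 CPM in Mettl3-RNP and 250 to 325 CPM in Pulsed libraries (log2 fold change -0.32, SE 0.0696, adjusted p = 0.0491 by edgeR). That call was lost without any of the 4 replicate numbers (adjusted p from 0.0826 to 0.202 by edgeR), under both other scalings (0.0516 and 0.0545) and with every gene of at least 1 count (0.221).

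Genes of pyruvate entry into mitochondria (13 of 14 tested) had a median of -0.10 on the log2 scale and 1 call. Pdk3, which held 69.4% ± 12 (SD, n = 4) of the TPM of the 4 pyruvate dehydrogenase kinases in Mettl3-RNP and 73.5% ± 7.6 in Pulsed cells, had 52.2, 52.9, 67.8 and 49 CPM in Mettl3-RNP libraries 1 to 4 and 64.7, 74.6, 85.6 and 72.4 CPM in Pulsed libraries 1 to 4. Each pair differed the same way, although Mettl3-RNP 3 lay above Pulsed 1. The log2 fold change was -0.43 (SE 0.0731, adjusted p = 0.0274 by edgeR), and the call was kept without replicate 3 (adjusted p = 0.0408) but not without replicate 1, 2 or 4 (0.0645, 0.13 and 0.185). In the list of glycogen and gluconeogenesis genes (12 of 16 tested, median -0.12), Pck2, the mitochondrial phosphoenolpyruvate carboxykinase, was higher at 65.8 to 98.5 CPM against 23.4 to 69.9 CPM. Its log2 fold change was 0.83 (SE 0.15, adjusted p = 0.0314 by edgeR), and the call was lost without replicate 1 or 2 (adjusted p = 0.0645 and 0.112). None of the 8 genes of the pentose phosphate pathway was called (median -0.06).

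No other regulator of the HIF pathway was called (13 of 16 tested, median log2 fold change 0.13, adjusted p of at least 0.13 by edgeR). Of 42 further HIF targets 33 were tested, with a median of -0.15, 18 lower and 15 higher by fitted level. Only Trf, the iron carrier transferrin, was called. It had 37.6, 47.8, 45.1 and 37.7 CPM in Mettl3-RNP libraries 1 to 4 and 55.8, 58.7, 61.8 and 47.5 CPM in Pulsed libraries 1 to 4. Pulsed 4 and Mettl3-RNP 2 were nearly equal and the groups overlapped slightly, with a log2 fold change of -0.41 (SE 0.0745, adjusted p = 0.0313 by edgeR). The call was lost without any of the replicate numbers (adjusted p from 0.0606 to 0.103).

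The m6A writer acts within a short sequence context, of which GGACT (in the letters of the DNA sense strand) is a frequent form, so the canonical transcripts were searched for it on that strand. The 34 tested genes held a median of 1.37 matches per kb, against 1.04 over 12056 tested protein-coding genes, with a median transcript length of 3356 and 3486 bases. The median number of matches per transcript was 4 in both sets, and the median GC content was 52.3% and 50.1%. Aldoa and Bnip3l had no match, as had 742 of the 12056 genes. Egln3 held 3 matches (1.12 per kb), Ldha 1 (0.63 per kb), Pgk1 4 (2.19 per kb) and Hk2 16 (2.05 per kb). A match is only a possible site. Methylation was not measured in these libraries.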

How the data were processed

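Poly-A RNA of the 8 BMMC libraries was read as paired ends. The authors aligned the reads with HISAT2 2.2.1 to GRCm39 (Ensembl release 107) and counted them per gene with featureCounts 2.0.1. The deposited values are raw whole-number counts, 1 table per library, with no normalization. The study mentions a batch correction whose batch is not named and which is not visible in the counts. Strand and multimapping settings are not given in the sources used here. GENCODE M39 named 56017 of 56748 IDs (98.7%).

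Genes were kept by filterByExpr (a count of about 10 in 4 libraries), scaled by TMM and compared with the quasi-likelihood test of edgeR 4.0.16 (R 4.3.3), with the replicate number as a block. P-values were adjusted by Benjamini-Hochberg over all 14942 tested genes, with a call at 0.05. The block rests on the 4 mice named in the series text. After removal of the group mean, libraries 1 to 4 of both groups correlated at 0.825, 0.489, 0.879 and 0.765 with their own number over 11985 genes (mean of 1 CPM or more), and at 0.183 at most with another. CPM used TMM library sizes, log2 CPM a prior count of 2, and TPM the canonical transcript length with no TMM. Copies were genes at 95% identity over at least 20% of the transcript. Alternatives were other scalings and filters, DESeq2 1.42.0, limma-voom (limma 3.58.1), no block, and leaving out each pair. The 3 models were tested on simulated counts. Reads had no molecular identifiers. Standard errors were computed from the log2 fold change and the F statistic of the edgeR test. The dispersion in that test is moderated over all genes, so they are not a gene's own spread between pairs. The study describes its replicates as biologically independent.

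Named were Mettl3, the 35 genes, called genes of the other lists and paralogs of the listed genes. Pgk1, Ldha, Hk2 and other genes printed per library, and the 5 promoter windows, were selected from these after their values were seen. The genes and lists were chosen with earlier results of these data known. The result of 1 macrophage marker, included in the summed level, is not reported here.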

Additional observations from a re-analysis of the deposited data

Results flagged for a closer look

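In 9 of 70 groups of 4 libraries, 1 library lay apart from the other 3 of its group by Dixon's criterion on the gap to the nearest library. Chance flags about 1 in 20 groups, which would be 3.5 here, and 5 of the 9 were libraries of replicate 1 and 3 of replicate 3. Hk2 was at 296 CPM in Mettl3-RNP 3 (30.3 to 48.3 CPM in the others) and at 480 CPM in Pulsed 3 (41.2 to 52.5 CPM). Ndrg1 was at 22.3 CPM in Mettl3-RNP 3 (113 to 123 CPM). In replicate 1, Ldha was at 455 CPM in Mettl3-RNP 1 (559 to 576 CPM), Mxi1 at 29.3 CPM in Mettl3-RNP 1 (19.8 to 21.4 CPM), Gpi1 at 476 CPM in Pulsed 1 (606 to 627 CPM), Tpi1 at 159 CPM in Pulsed 1 (265 to 284 CPM) and Eno2 at 4.36 CPM in Pulsed 1 (0.219 to 0.771 CPM). Pkm was at 881 CPM in Pulsed 2 (780 to 791 CPM).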

How the results depend on the processing

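The median log2 fold change of the listed genes stayed below 0 in all 11 alternatives (-0.32 to -0.19 when a pair was left out), and 27 of 34 genes kept their sign wherever they were tested. Slc2a1, Hk1, Gpi1, Pfkm, Pfkp, Eno2 and Pdk1 did not. The number called lower, 1 with edgeR, was 2 with every gene of at least 1 count (Aldoc, Egln3), 3 with at least 10 counts in every library (Hk2, Ldha, Pgk1; Egln3 was then not tested), 9 with DESeq2, 3 with limma-voom, 0 with no replicate block, where the smallest adjusted p of the list was 0.999 and 1 gene had an unadjusted p under 0.05, and 0 to 2 when a pair was left out. The number called higher was 1 with DESeq2 (P4ha2) and 0 otherwise. Over all genes 559 of 14942 were called, 993 of 33650 with every gene of at least 1 count and 959 of 12504 with at least 10 counts in every library. The number was 0 with no block, 642 with limma-voom and 1449 with DESeq2. Without replicates 1, 2, 3 and 4 it was 332, 26, 383 and 345. The 23 listed genes that differed between replicate numbers became 10 to 23 when a pair was left out. No share over all genes is given for those fits, so a change in the list alone cannot be told from one over all genes. On the other lists, 3 lower and 2 higher became 6 and 6 with DESeq2. Of all genes it adjusted, DESeq2 called 4.56% lower and 7.19% higher. The counts on these lists were 0 and 0 with no replicate block, and 0 to 1 and 0 to 3 when a pair was left out. Bsg was no longer called under either other scaling. The cause of these shifts was not tested. Egln3, Eno2 and Ankrd37 had at most 179 counts in a library.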
